A study of Homo sapiens and Mus musculus with 12 samples.

Results

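The quiescence factors KLF2, KLF6, FOXO1, FOXO3 and FOXP1 were examined as 5 rows of a mouse count table of 22021 genes and as the 5 corresponding rows of a human count table of 18304 genes. They were chosen by gene symbol, and all 10 rows passed the filter on low counts. RNA-seq was performed on splenic NK cells (CD3-NK1.1+) sorted from C57BL/6J mice aged 8 to 12 weeks and on NK92MI cells, a human line of NK origin engineered to produce the IL-2 it needs. WT mice carried Ehmt2 flox/flox alleles, and KO mice carried the same alleles together with Ncr1-iCre, so that Cre was under the control of Ncr1, which encodes NKp46, and deletion was directed to cells that express it. The KO samples were titled EHMT2-KO but carried Ezh2-KO in the genotype field, and they were grouped by their titles. NK92MI cells received BIX-01294 (hereafter BIX), an inhibitor of the histone methyltransferase EHMT2, or DMSO. For NK92MI cells a dose of 0.25 µM for 5 days was described in a legend, whereas dose and time were not stated for the RNA-seq cultures. Each group had 3 libraries. Nothing stated that these came from separate animals or cultures, so the p-values measure the spread between these libraries, which may be technical.

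Quiescence in lymphocytes is an actively maintained state of low metabolism and no division. The Krüppel-like factors KLF2 and KLF6 are zinc finger proteins that bind GC-rich and CACCC sequences, and KLF2 holds T cells at rest and drives the receptors that let them leave lymphoid tissue. FOXO1 and FOXO3 are forkhead proteins that are held in the cytoplasm once AKT phosphorylates them and that otherwise activate cell cycle inhibitors, autophagy genes and homing receptors. FOXP1, a forkhead repressor of another branch, keeps naive T cells resting. In NK cells KLF2 limits expansion and FOXO1 restrains maturation. EHMT2 writes the repressive mark H3K9me2, and the comparisons address whether the RNA of these factors differed after its gene was deleted or its enzyme inhibited.

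The promoters of KLF2 and KLF6 are shown because these were the factors whose RNA moved past both thresholds of the test in BIX-treated cells, and in opposite directions. Each run gives, 5′ to 3′ on the strand of the gene, the 250 bases before the RefSeq start site (GRCh38.p14). They were read from chr19:16324576-16324825 on the plus strand and chr10:3785210-3785459 on the minus strand. Capitals mark GC boxes (GGGCGG on either strand), a MEF2 motif in KLF2 and an E-box (CACGTG) in KLF6.
KLF2: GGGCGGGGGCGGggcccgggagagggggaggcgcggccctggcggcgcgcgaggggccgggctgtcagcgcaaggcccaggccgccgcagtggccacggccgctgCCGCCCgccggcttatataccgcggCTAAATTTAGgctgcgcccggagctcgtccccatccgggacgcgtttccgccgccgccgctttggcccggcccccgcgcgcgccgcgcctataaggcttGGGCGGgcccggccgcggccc
KLF6: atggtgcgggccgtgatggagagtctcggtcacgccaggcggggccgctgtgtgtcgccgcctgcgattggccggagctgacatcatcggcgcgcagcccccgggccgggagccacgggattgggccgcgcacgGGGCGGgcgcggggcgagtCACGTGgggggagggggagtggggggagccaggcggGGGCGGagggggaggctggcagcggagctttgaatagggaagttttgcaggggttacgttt

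The KLF2 window had a GC content of 80% and held 4 GC boxes, 2 of them adjoining at its far end. Its MEF2 motif lay 120 to 111 bases before the start. The KLF6 window had a GC content of 72.4% and held 2 GC boxes and an E-box 97 to 92 bases before the start. Among 35116 RefSeq windows of the same length, 42.6% held a GC box, 2.8% a MEF2 motif and 6.34% the E-box. The KLF core CACCC (54.7% of windows), the forkhead motif GTAAACA (2.98%), the cyclic AMP response element TGACGTCA (1.65%) and the SRF CArG box (1.16%) were searched on both strands and were not among the letters of either window. A match is a description of the sequence and no evidence of binding.

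In GRCm38 (GENCODE vM21 annotation) Klf2 lies at chr8:72319033-72321656 and Klf6 at chr13:5861482-5870394, both on the plus strand, as does Foxo1 at chr3:52268336-52353221. Foxo3 at chr10:42181841-42276755 and Foxp1 at chr6:98925338-99522721 lie on the minus strand. In GRCh38 (GENCODE v44 annotation) KLF2 lies at chr19:16324826-16328685 and FOXO3 at chr6:108559835-108684774 on the plus strand. KLF6 at chr10:3775996-3785281, FOXO1 at chr13:40555667-40666641 and FOXP1 at chr3:70954693-71583978 lie on the minus strand. KLF2 and KLF6 are compact genes of 3.86 and 9.29 kb, whereas FOXP1 spans 629 kb.

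Library totals were 25891680 to 37438868 counts in mouse and 16579469 to 17165446 counts in human. Ehmt2, the targeted gene, was counted at 275 to 285 CPM (counts per 1000000 counts of a library, TMM-normalised) in WT NK cells and at 137 to 171 CPM in KO NK cells. Its log2 fold change was −0.91 (adjusted p = 0.0162, edgeR's quasi-likelihood test). Ezh2 was counted at 44.03 ± 2.15 CPM in WT and 37.6 ± 2.35 CPM in KO NK cells (SD, n = 3; log2 fold change −0.23, adjusted p = 0.116). In NK92MI cells EHMT2 fell from 57.7 ± 3.66 to 38.5 ± 2.39 CPM (SD, n = 3; log2 fold change −0.58, adjusted p = 0.000101). The mouse libraries also differed in markers of other cells. All 12 NK cell markers were higher in KO NK cells, and 7 of them passed an adjusted p of 0.05, with summed levels of 5490 to 9201 CPM in WT and 10420 to 12030 CPM in KO NK cells. All 12 B cell markers were lower in KO NK cells (2 passed; sums of 704.6 to 1835 CPM in WT and 160.9 to 650.4 CPM in KO), as were all 12 macrophage and monocyte markers (7 passed; 2666 to 6984 and 1418 to 2589 CPM). All 9 neutrophil markers tested (2 passed; 230.5 to 1720 and 57.71 to 256.7 CPM) and all 9 erythroid markers (9 passed; 252.4 to 403.2 and 122.1 to 156.3 CPM) were lower too. Of 9 T cell markers 6 were lower and 3 higher, and 7 of 8 dendritic cell, all 6 platelet and 7 of 8 endothelial and stromal markers were lower. The macrophage marker Csf1r was at 1285, 521 and 856 CPM in WT replicates 1, 2 and 3 and at 432, 321 and 398 CPM in KO replicates 1, 2 and 3. NK92MI cells had 343 ± 3.28 CPM of NCAM1 in DMSO and 348 ± 25.5 CPM in BIX (SD, n = 3). Of 13 NK cell markers in this line, 7 rose and 3 fell at an adjusted p of less than 0.05. In bulk samples fewer cells of a type and less RNA per cell cannot be told apart.

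**Figure D1:**
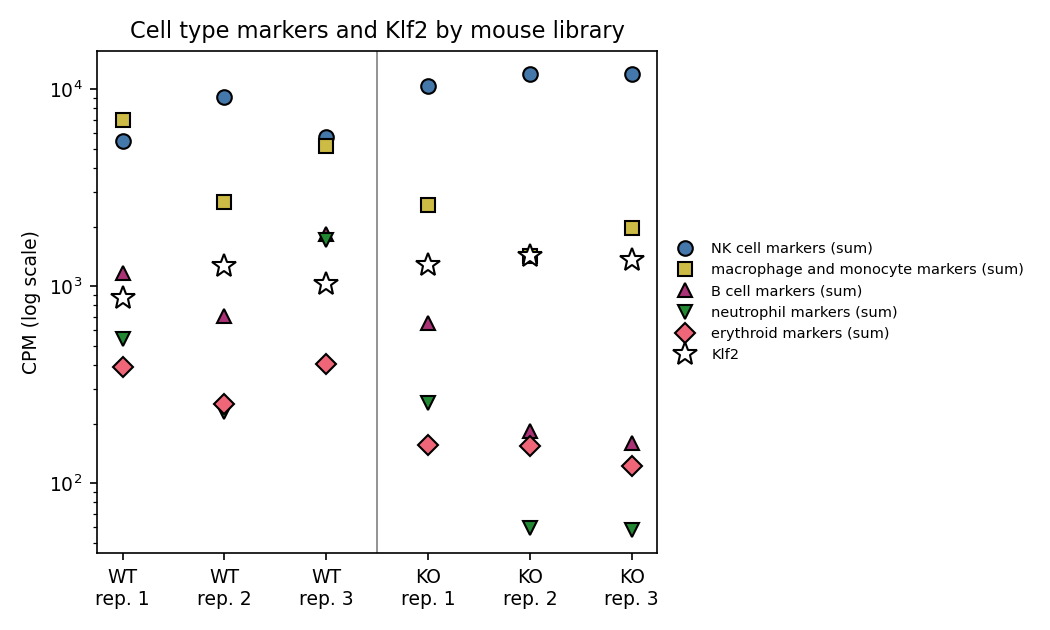
Summed levels of cell type markers and the level of Klf2 in each mouse library, in TMM-normalised CPM on a log axis. The 3 KO libraries lie above the 3 WT libraries for NK cell markers and below them for macrophage, erythroid and B cell markers, while neutrophil markers overlap, and WT replicate 2 is the WT library nearest to the KO libraries in NK cell markers and in Klf2.

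In splenic NK cells none of the 5 factors was called between KO and WT by either of 2 rules. Klf2 was the factor with the widest difference, at 1.29 times the WT level on average, and the others differed by less. The stricter rule asked for an adjusted p below 0.01 together with a log2 fold change beyond 0.5 in either direction. By it, 0 of the 5 were called by edgeR's quasi-likelihood test, beside 0% of the 13189 genes tested. DESeq2 called 0 of the 5, beside 9.1% of the 16464 genes in its table, which was not filtered on low counts. By the looser rule, an adjusted p below 0.05, 0 of the 5 passed, beside 11.9% of all genes. At an unadjusted p under 0.05, Klf2 alone of the 5 passed, beside 35.8% of all genes.

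Klf2, the factor of T cell rest and lymphoid egress, was counted at 872, 1263 and 1025 CPM in WT replicates 1, 2 and 3, and at 1278, 1427 and 1360 CPM in KO replicates 1, 2 and 3. All 3 KO libraries lay above all 3 WT libraries, although WT replicate 2 came close to the lowest KO library, as was the case for 19.1% of all genes tested, with 38.5% separated in either direction. The means were 1053 ± 197 and 1355 ± 74.7 CPM (SD, n = 3). The log2 fold change was 0.36 (standard error 0.15, 95% interval 0.022 to 0.70), with an unadjusted p of 0.0397 and an adjusted p of 0.123 by edgeR's quasi-likelihood test. The two-sided exact permutation test over libraries gave p = 0.1, the smallest that 3 against 3 allow. Without WT replicate 2, the WT library with the highest Klf2 and NK cell markers, the log2 fold change was 0.52 (adjusted p = 0.0229). In the other 5 fits that left out a library it lay between 0.24 and 0.40 with adjusted p between 0.124 and 0.317. The summed NK cell markers of WT replicates 1, 2 and 3 were 5490, 9201 and 5712 CPM, so the WT library with the most NK cell marker RNA was also the highest for Klf2. The part that these markers play in the difference was not tested.

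Klf6, a widely expressed relative that is induced by many stimuli, was counted at 124, 123 and 142 CPM in WT NK cells and at 133, 119 and 160 CPM in KO NK cells. The groups overlapped, with the lowest and the highest library both among the KO replicates. The log2 fold change was 0.08 (standard error 0.12, 95% interval −0.20 to 0.37, adjusted p = 0.643), and without KO replicate 3 it was −0.04. The sign of the Klf6 estimate therefore rested on a single library.

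Foxo1, which activates homing receptors in resting lymphocytes, was counted at 95.3, 112 and 103 CPM in WT NK cells and at 107, 126 and 131 CPM in KO NK cells. KO replicate 1 lay within the WT range, while the other two KO libraries lay above it. The log2 fold change was 0.23 (standard error 0.10, 95% interval −0.015 to 0.47), with an adjusted p of 0.160 and a two-sided exact permutation p of 0.2. Its paralog Foxo3 was counted at 109, 127 and 114 CPM in WT NK cells and at 112, 126 and 137 CPM in KO NK cells, and KO replicates 1 and 2 lay within the WT range. The log2 fold change of Foxo3 was 0.10 (standard error 0.10, 95% interval −0.14 to 0.34, adjusted p = 0.517). With a library left out it lay between 0.028 (without KO replicate 3) and 0.17 (without WT replicate 2).

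Foxp1, the forkhead repressor, was the only factor of the 5 with a negative estimate, at 123.5, 132.6 and 142.2 CPM in WT NK cells and at 119.6, 119.3 and 133.7 CPM in KO NK cells. Its groups overlapped, and the log2 fold change was −0.10 (standard error 0.088, 95% interval −0.30 to 0.11, adjusted p = 0.459). With a library left out it lay between −0.15 (without KO replicate 3) and −0.049 (without WT replicate 3). The 95% intervals of Klf6, Foxo1, Foxo3 and Foxp1 all lay within 0.5 on the log2 scale on either side of 0, whereas that of Klf2 reached 0.70.

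These estimates are relative to the bulk of the RNA, and they depended on the scaling. When the libraries were scaled to the NK cell marker list in place of TMM, the median gene moved to a log2 fold change of −0.81, from 0.014, and the 4 positive estimates turned negative. Klf2 was then at −0.42, Foxo1 at −0.59, Foxo3 at −0.72, Klf6 at −0.75 and Foxp1 at −0.92. Foxp1 passed both thresholds (adjusted p = 0.00843 by edgeR's quasi-likelihood test), as did 3561 of the 13189 genes tested, 3542 of them lower. Scaling in this way takes the summed NK cell markers as equal between libraries. The list includes Prf1 and Il2rb, whose RNA the paper reports as raised in KO NK cells by RT-qPCR, so such a rise would be scaled away. This scaling shifts all genes by nearly the same amount, so the distance of a factor from the median gene was bound to change little. These distances are therefore no test of stability. Klf2 was 0.35 above the median gene after TMM and 0.39 above it after scaling to NK cell markers, and Foxp1 stood at −0.11 relative to it under both.

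**Figure D2:**
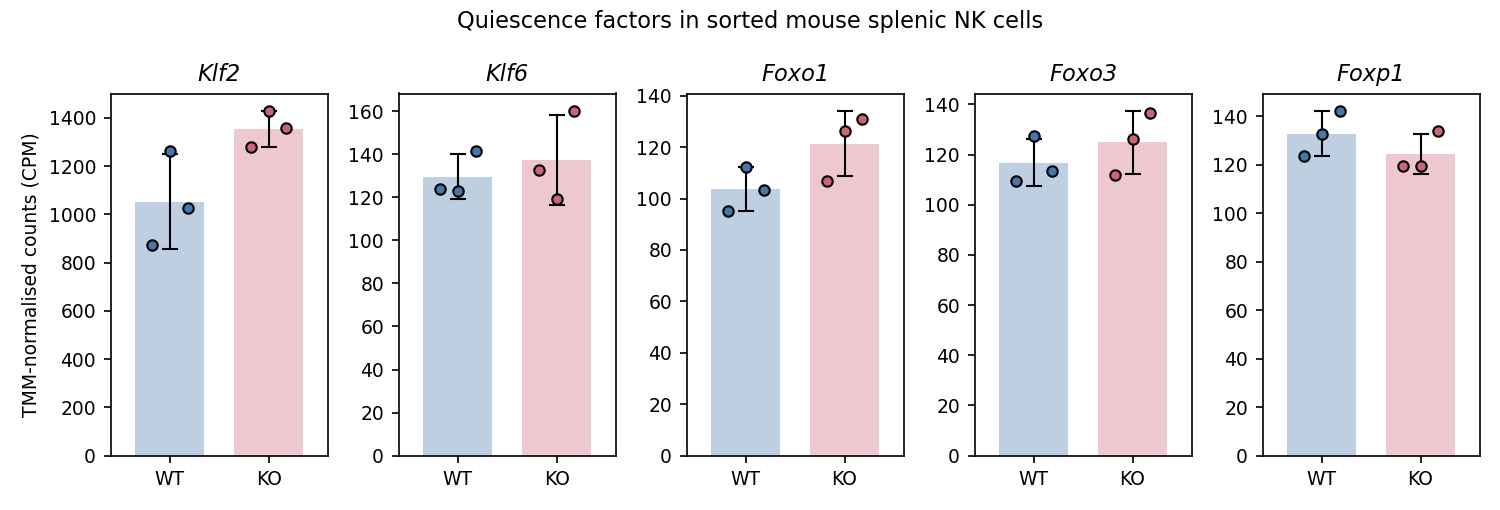
Levels of the 5 factors in sorted splenic NK cells, in TMM-normalised CPM on linear axes that start at 0. Points are libraries (replicates 1, 2 and 3 from left to right), bars are means and error bars the SD (n = 3 per group). The groups do not overlap for Klf2 and overlap for the other 4.

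In NK92MI cells 2 of the 5 factors passed both thresholds after BIX, in opposite directions. KLF2 fell to 0.452 times and KLF6 rose to 1.88 times its level in DMSO. These 2 of 5 stand beside 11.7% of the 12727 genes tested, of which 6.24% were called higher and 5.43% lower. FOXO3 and FOXP1 rose by smaller amounts that passed an adjusted p of 0.05 but not the thresholds, so that 4 of 5 factors passed the looser rule, beside 36.9% of all genes. FOXO1 passed neither. DESeq2 called the same 2 factors, beside 7.89% of the 18304 genes in its table, which was not filtered on low counts. An unadjusted p below 0.05 was reached by 4 of 5 in edgeR's test, beside 46.1% of all genes. Between the groups 4 of the 5 did not overlap, 3 of them higher and 1 lower, beside 47.9% of all genes, 24.1% higher and 23.9% lower.

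KLF2 was a low-abundance transcript in this line. It was counted at 4.6, 3.27 and 4.14 CPM in the DMSO libraries CON-1, CON-2 and CON-3, and at 1.89, 1.59 and 1.95 CPM in BIX replicates 1, 2 and 3. These levels rested on 79, 56 and 70 counts in DMSO and 31, 27 and 33 counts in BIX, and every BIX library lay below every DMSO library. The log2 fold change was −1.14 (standard error 0.23, 95% interval −1.64 to −0.65, adjusted p = 0.00156 by edgeR's quasi-likelihood test and 0.00078 by DESeq2). Without the DMSO library CON-1, the highest of the 6, the log2 fold change was −1.04 with an adjusted p of 0.0105, just past the threshold of 0.01, and KLF2 lost its call. The two-sided exact permutation test gave p = 0.1, the smallest possible.

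KLF6 was the most abundant of the 5 in NK92MI cells. It was counted at 387, 380 and 392 CPM in DMSO and at 763, 707 and 712 CPM in BIX, so that the lowest BIX library lay far above the highest DMSO library. The log2 fold change was 0.91 (standard error 0.060, 95% interval 0.78 to 1.04, adjusted p = 1.44e-07). By p-value KLF6 ranked 40 among the 12727 genes tested, and it remained between 0.88 and 0.94 with each library left out in turn.

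FOXO1 was counted at 53.3, 49.6 and 63.4 CPM in DMSO and at 67.9, 57.9 and 59.0 CPM in BIX. The highest DMSO library exceeded 2 of the 3 BIX libraries, and the difference did not pass (log2 fold change 0.15, standard error 0.096, 95% interval −0.054 to 0.36, adjusted p = 0.235). With a library left out it lay between 0.078 (without CON-2) and 0.26 (without CON-3). FOXO3 was counted at 77.6, 74.1 and 78.9 CPM in DMSO and at 99.1, 92.5 and 84.1 CPM in BIX. Its log2 fold change was 0.26 (standard error 0.074, 95% interval 0.10 to 0.42, adjusted p = 0.0138). The groups were separate for FOXO3, but BIX replicate 3 lay near the DMSO libraries, and the adjusted p rose to 0.0897 without BIX replicate 1 and to 0.0597 without CON-2.

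FOXP1 was counted at 19.1, 15.1 and 17.1 CPM in DMSO and at 22.1, 22.8 and 21.1 CPM in BIX, with all BIX libraries above all DMSO libraries. Its log2 fold change was 0.36 (standard error 0.11, 95% interval 0.13 to 0.59, adjusted p = 0.0170). The adjusted p of FOXP1 rose above 0.05 in 3 of the 6 fits that left out a library, to 0.0511 without BIX replicate 1, 0.0833 without CON-2 and 0.0557 without CON-3. Over the 6 fits the log2 fold change of FOXP1 lay between 0.28 and 0.45 and that of FOXO3 between 0.21 and 0.32, and each gene stayed under an adjusted p of 0.05 in the fits not named here (4 for FOXO3, 3 for FOXP1).

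**Figure D3:**
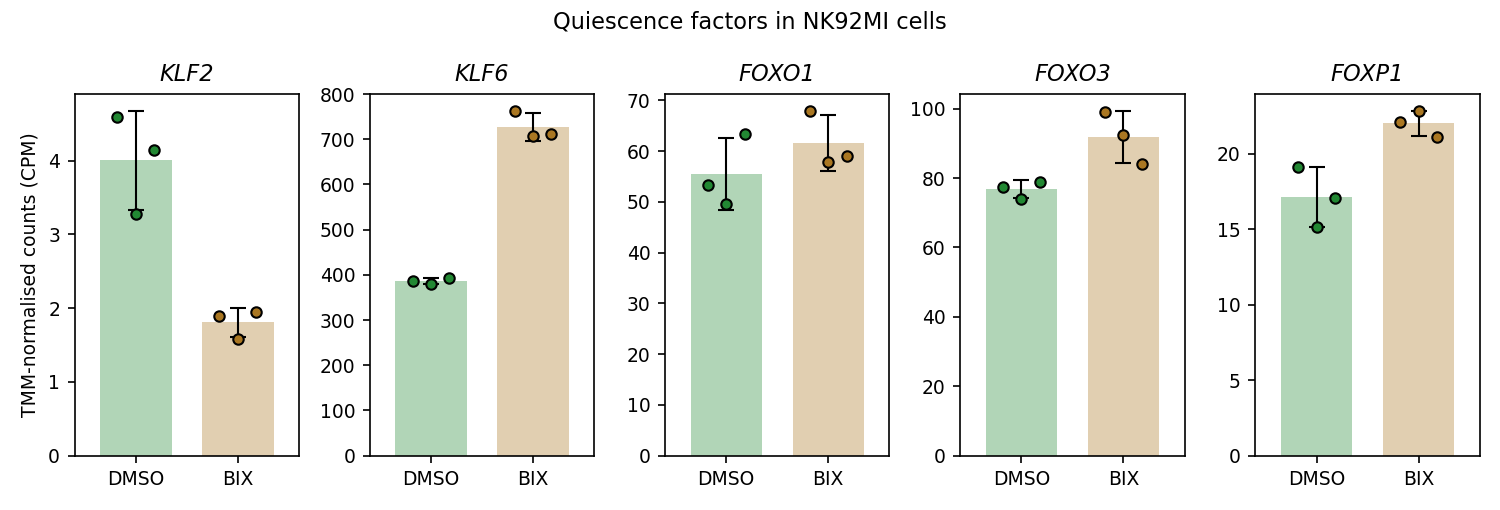
Levels of the 5 factors in NK92MI cells, in TMM-normalised CPM on linear axes that start at 0. Points are libraries (CON-1 to CON-3 and BIX replicates 1 to 3 from left to right), bars are means and error bars the SD (n = 3 per group). KLF2 is lower and KLF6, FOXO3 and FOXP1 are higher in every BIX library, and FOXO1 overlaps.

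The comparisons used different species, cells and means of removing EHMT2 activity, and their values stand side by side without a test between them. The KLF2 estimates had opposite signs, with a log2 fold change of 0.36 in KO NK cells and −1.14 in BIX-treated NK92MI cells. The KLF6 estimates were 0.08 and 0.91. FOXO1 was at 0.23 and 0.15 and FOXO3 at 0.10 and 0.26, while FOXP1 was at −0.10 and 0.36.

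**Figure D4:**
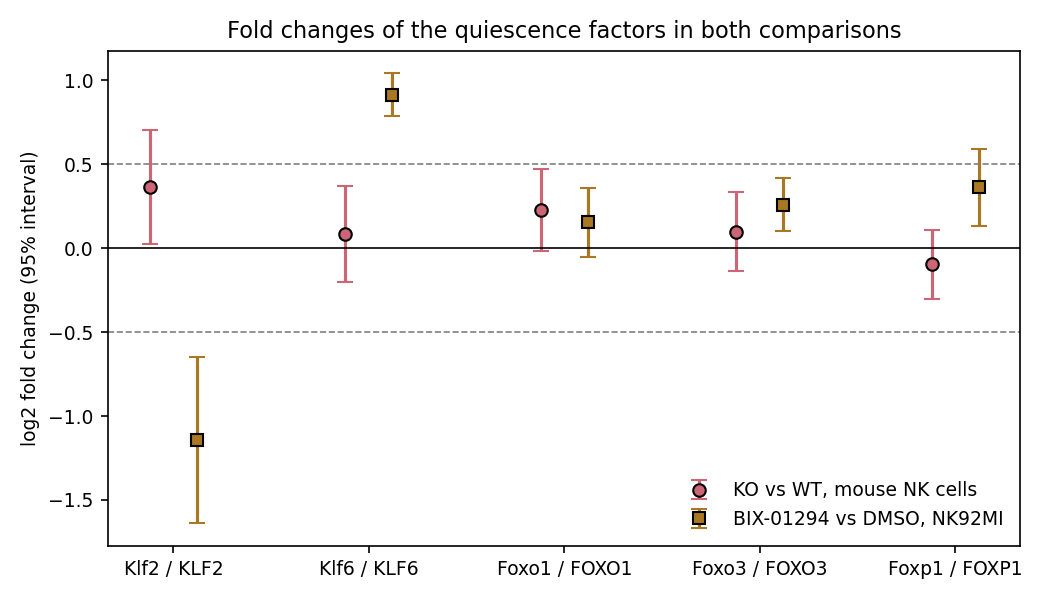
Log2 fold changes of the 5 factors with their 95% intervals from edgeR's quasi-likelihood test, in KO against WT mouse NK cells (circles) and in BIX against DMSO NK92MI cells (squares). Dashed lines mark the fold change threshold of 0.5 on either side of 0. KLF2 and KLF6 in NK92MI cells are the values whose intervals lie wholly beyond a dashed line.

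To compare the factors with each other, levels were divided by the length of the merged exons of each gene. In WT NK cells Klf2 stood at 570 ± 107 CPM per kb (SD, n = 3), Klf6 at 29.5 ± 2.38, Foxo3 at 15.4 ± 1.24, Foxo1 at 11.96 ± 0.98 and Foxp1 at 9.65 ± 0.68. The order was the same in KO NK cells, from Klf2 at 734 ± 40.4 CPM per kb to Foxp1 at 9.03 ± 0.60. Neighbours in this order did not overlap between libraries, with the exception of Foxo3 and Foxo1 in KO NK cells. By counts alone, Klf2 stood above 99.5% of the genes tested in mouse.

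NK92MI cells had another order. In DMSO, KLF6 stood at 62.9 ± 1.06 CPM per kb, FOXO3 at 10.02 ± 0.32, FOXO1 at 9.30 ± 1.20, KLF2 at 1.42 ± 0.24 and FOXP1 at 0.522 ± 0.061 (SD, n = 3). The levels of FOXO3 and FOXO1 overlapped, and the other neighbours did not. In BIX, KLF6 reached 118 ± 5.11 CPM per kb, and KLF2 at 0.641 ± 0.069 was no longer separate from FOXP1 at 0.671 ± 0.026. KLF2, the most abundant of the factors in mouse splenic NK cells, thus stood near the bottom of the order in the line. The merged exons of human FOXP1 come from 71 annotated transcripts and measure 32800 bases, so its level per kb is a low estimate.

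The forkhead counts carry some uncertainty from shared sequence. Of the stretches of 50 bases in the exons of FOXO3, 35.6% also occur in FOXO3B, a near-identical copy that has its own row in the table. FOXO3B had 74, 69 and 59 counts in CON-1, CON-2 and CON-3 and 123, 118 and 101 counts in BIX replicates 1, 2 and 3, beside 1333, 1267 and 1333 and 1628, 1573 and 1425 counts of FOXO3. The sum of both rows was 80.8 ± 2.33 CPM in DMSO and 98.7 ± 8.28 CPM in BIX (SD, n = 3), a log2 ratio of 0.289 beside 0.26 for FOXO3 alone. FOXO1 shared 21.7% of such stretches with an overlapping non-coding gene on its own strand and FOXP1 8.12% with other genes. For mouse Foxo1 6.7% lay in the antisense gene Gm20402, and reads of the pair could be told apart only if strand was used in counting. Klf2, Klf6 and Foxo3 in mouse and KLF2 and KLF6 in human shared none.

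Further genes were followed in 10 lists. These held targets, regulators and relatives of the factors, other quiescence genes, cell cycle genes and immediate early genes. In KO NK cells 0 genes of these lists passed both thresholds by edgeR's quasi-likelihood test, of 160 tested. By DESeq2 23 of 162 did (14.2%), beside 9.1% of the 16464 genes in its table. That table was not filtered on low counts and holds many rows with few counts, so the shares are not directly comparable. By the looser rule 27 of 160 did (16.9%), beside 11.9% of all genes. Of these, 6 were higher and 21 lower, beside 4.44% of all genes higher and 7.43% lower. The cell cycle list held 13 of the 21 lower. Markers of B cells, macrophages and erythroid cells were lower in the same libraries, and their part in the list genes that fell was not tested. These 27 calls fell to 0 without KO replicate 2, KO replicate 3, WT replicate 1 or WT replicate 3. They rose to 37 without KO replicate 1, beside 2032 of all 13427 genes, and to 48 without WT replicate 2, beside 3530 of all 13411 genes. Under scaling to the NK cell markers the 6 rises by edgeR's test became negative and, by the looser rule, 0 list genes were higher. Genes that rose or fell in the lists below did so by the looser rule in edgeR's test, unless DESeq2 is named. By DESeq2, 42 list genes had an adjusted p below 0.05 in KO NK cells, 12 of them higher, beside 3092 of the 16464 genes in its unfiltered table. In BIX-treated NK92MI cells 18.4% of all genes were higher and 18.4% lower by the looser rule, and the list counts stand beside these shares.

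Receptors for lymphocyte homing are classical targets of KLF2 and FOXO1. By the looser rule in edgeR's test, 1 of 7 rose and 0 fell in KO NK cells. This was Itgb7, the integrin subunit of gut homing, at 483 ± 52.0 CPM in WT and 654 ± 13.8 CPM in KO NK cells (SD, n = 3; log2 fold change 0.44, adjusted p = 0.0429). The list median was 0.22, beside 0.014 for all genes. In BIX-treated NK92MI cells 3 of 6 tested rose and 2 fell, beside 18.4% of all genes in each direction, with a list median of 0.71 beside −0.0083. CCR7, the receptor that guides lymphocytes into lymph nodes, rose from 41.0 ± 4.25 to 198 ± 11.9 CPM (log2 fold change 2.27, adjusted p = 1.95e-09). CXCR4, which retains cells in bone marrow, rose from 294 ± 10.4 to 877 ± 56.2 CPM (1.58, adjusted p = 3.37e-09). The inflammatory chemokine receptor CXCR3 fell, at a log2 fold change of −0.84 (adjusted p = 1.48e-05).

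S1PR1, the egress receptor that KLF2 activates, was counted at 5.50 ± 0.98 CPM in DMSO and 3.81 ± 0.40 CPM in BIX (SD, n = 3). It fell by 0.53 on the log2 scale by edgeR's quasi-likelihood test (adjusted p = 0.0408), but did not pass by DESeq2 (adjusted p = 0.0732). KLF2 and S1PR1 were therefore both lower in BIX-treated cells by edgeR's test, whereas CCR7, another homing receptor, was higher. The mouse counterparts were looked at after the human values were seen. In KO NK cells Ccr7 was at −1.0 (adjusted p = 0.0577), S1pr1 at −0.39 (adjusted p = 0.0978) and Cxcr4 at −0.07 (adjusted p = 0.848). None of these passed by edgeR's quasi-likelihood test. By DESeq2 the adjusted p was 0.00187 for Ccr7, 0.0513 for S1pr1 and 0.844 for Cxcr4. Ccr7 thus passed an adjusted p of 0.01 by DESeq2, and the others did not pass the looser rule. B cell and most dendritic cell markers were lower in the same KO libraries, and their part in these mouse values was not tested.

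FOXO proteins activate genes of stress resistance, autophagy and cell cycle arrest. Of 20 such genes 1 rose and 3 fell in KO NK cells, with a list median of −0.08. The autophagy gene Gabarapl1 (log2 fold change −0.65, adjusted p = 0.0304), Cat, which encodes catalase (−0.46, adjusted p = 0.0304), and Irs2, an adaptor of the insulin receptor (−0.50, adjusted p = 0.0400), fell. Sesn3, a sestrin that restrains mTORC1, rose at 0.40 (adjusted p = 0.0431). In NK92MI cells 9 of 15 rose and 1 fell, and the list median was 0.71. TXNIP, which limits glucose uptake, rose from 218 ± 14.8 to 466.5 ± 41.0 CPM (SD, n = 3; log2 fold change 1.10, adjusted p = 2.7e-07). The autophagy gene MAP1LC3B (0.77), CDKN1B, which encodes the cell cycle inhibitor p27 (0.63), and the repressor BCL6 (0.86) rose as well, with adjusted p between 7.72e-07 and 1.04e-05. CAT fell by 0.54 on the log2 scale (adjusted p = 0.000126).

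Other genes known for lymphocyte quiescence were followed as a list of 17. In KO NK cells 0 of 17 rose and 1 fell, with a list median of 0.15. The gene that fell was the retinoblastoma gene Rb1, at 64.3 ± 2.19 CPM in WT and 47.9 ± 1.6 CPM in KO NK cells (SD, n = 3; log2 fold change −0.42, adjusted p = 0.0305). In NK92MI cells 9 of 15 rose and 3 fell, with a list median of 0.46. Those with the smallest p-values were PELI1, a ubiquitin ligase that restrains lymphocyte activation (1.44, adjusted p = 1.04e-08), the antiproliferative genes BTG1 (1.33, adjusted p = 7.51e-08) and TOB1 (0.87, adjusted p = 7.42e-06), and ZFP36L1, an RNA-binding protein that promotes decay of mRNAs (1.05, adjusted p = 7.51e-08). The pocket protein gene RBL2 (−0.42), RUNX1 (−0.34) and the checkpoint gene VSIR (−0.65) fell.

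Upstream of the FOXO proteins lies the PI3K-AKT-mTOR pathway. Of its 23 genes 0 rose and 1 fell in KO NK cells, which was Sgk3, a kinase related to AKT (log2 fold change −0.63, adjusted p = 0.0471). In NK92MI cells 4 of 21 rose and 10 fell, beside 18.4% of all genes in each direction, with a list median of −0.10. SGK1, another AKT-related kinase that phosphorylates FOXO proteins, rose from 44.8 ± 2.7 to 132.5 ± 11.9 CPM (SD, n = 3; log2 fold change 1.56, adjusted p = 1.9e-08). PHLPP1, a phosphatase that removes phosphate from AKT, rose at 0.61 (adjusted p = 0.000197), TSC1 at 0.33 and PDPK1, the kinase that activates AKT, at 0.23. The lipid phosphatase gene INPP4B fell (−1.03, adjusted p = 3.13e-06), as did the adaptor gene PIK3AP1 (−0.63) and TSC2 (−0.54). Genes on both the activating and the restraining side of the pathway were therefore among those that fell.

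Proteins that modify or bind FOXO factors formed a list of 12. In KO NK cells 0 of 12 rose and 0 fell by edgeR's quasi-likelihood test, and 0 were called by DESeq2 at an adjusted p below 0.05. At an unadjusted p below 0.05, 2 were higher (Sirt1 and Mdm2, chosen after their values were seen) and 0 lower, beside 35.8% of all genes in either direction. In NK92MI cells 2 of 12 rose and 3 fell, all by less than 0.5 on the log2 scale, beside 18.4% of all genes in each direction. YWHAZ, a 14-3-3 protein that holds FOXO proteins in the cytoplasm, rose at 0.28 and the kinase gene MAPK8 at 0.23. SKP2, which marks FOXO1 for degradation, fell (−0.36), as did the nuclear exporter gene XPO1 (−0.28) and YWHAB (−0.22).

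KLF2 itself is activated through MEK5, ERK5 and MEF2 factors, and class IIa histone deacetylases hold MEF2 factors inactive. Of these 10 genes 0 rose and 1 fell in KO NK cells, Mef2c, at 81.8 ± 13.1 CPM in WT and 53.6 ± 6.79 CPM in KO NK cells (SD, n = 3; log2 fold change −0.61, adjusted p = 0.0431). Mef2c is strongly expressed in B cells and macrophages, whose markers were lower in the same libraries, and their part in it was not tested. In NK92MI cells 1 of 10 rose and 3 fell, beside 18.4% of all genes in each direction. MAP3K3, a kinase upstream of MEK5, rose at 0.27. The deacetylase genes HDAC7 (−0.65, adjusted p = 7.48e-06) and HDAC4 (−0.69, adjusted p = 0.000547) fell. So did MEF2C by edgeR's test, from 1.95 ± 0.23 to 1.11 ± 0.091 CPM (SD, n = 3; −0.81, adjusted p = 0.0392). MEF2C had at most 36 counts in a library and did not pass by DESeq2 (adjusted p = 0.0961).

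**Figure D5:**
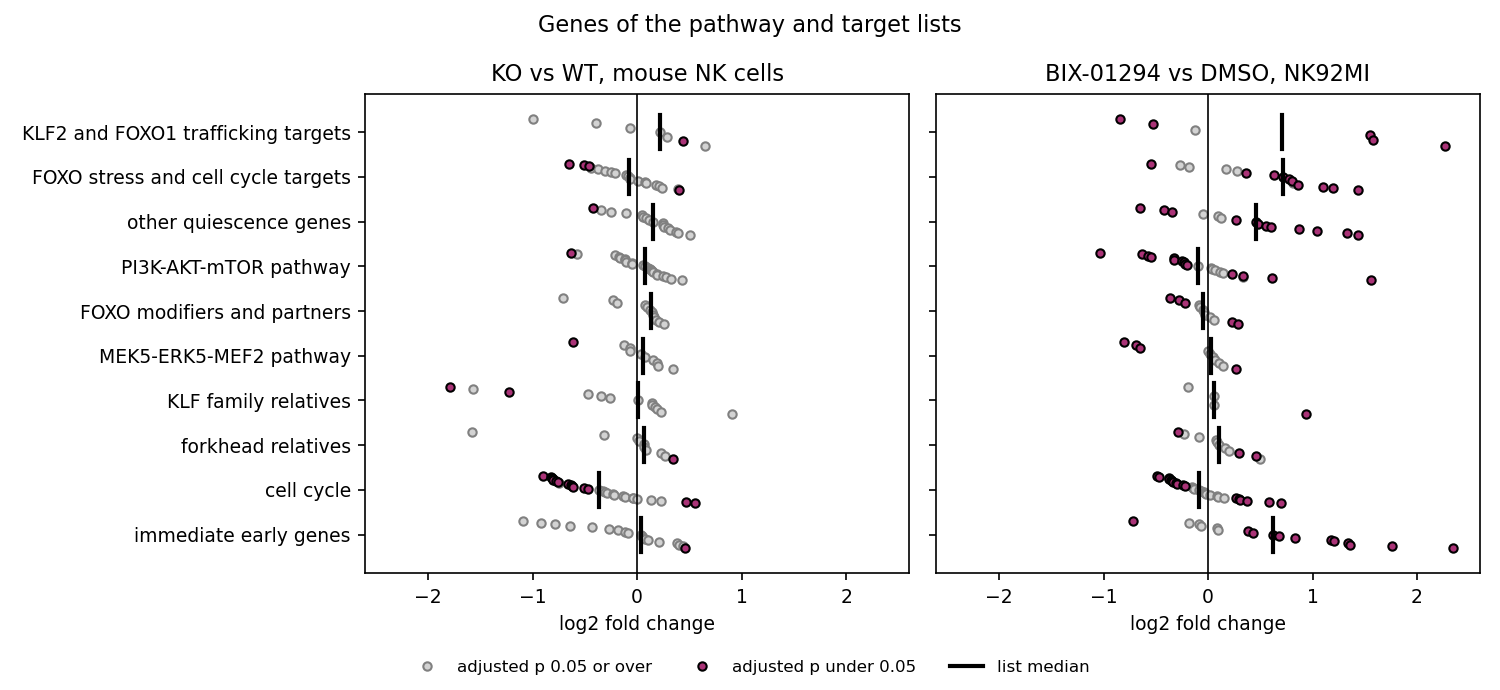
Log2 fold changes of the genes in the 10 lists, in KO against WT mouse NK cells on the left and in BIX against DMSO NK92MI cells on the right. Filled points passed an adjusted p of 0.05 by edgeR's quasi-likelihood test, grey points did not, and vertical bars are list medians. In NK92MI cells the medians of the trafficking, FOXO target, other quiescence and immediate early lists lie between 0.46 and 0.71, whereas in KO NK cells the median farthest from 0 is that of the cell cycle list at −0.36.

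Among relatives of the factors, 0 of 13 Krüppel-like genes tested in mouse rose and 2 fell. These were Klf1, the erythroid factor (log2 fold change −1.79, adjusted p = 0.0239), and Klf11 (−1.23, adjusted p = 0.0271). Klf1 is also among the 9 erythroid markers, all of which were lower in KO NK cells. Of 10 forkhead relatives 1 rose, the third FOXO member Foxo4, at 31.6 ± 1.42 CPM in WT and 39.97 ± 1.5 CPM in KO NK cells (SD, n = 3; 0.34, adjusted p = 0.0463). In NK92MI cells 1 of 4 Krüppel-like genes tested rose, KLF10, a gene induced by TGF-beta, from 37.7 ± 1.6 to 72.4 ± 5.49 CPM (0.94, adjusted p = 1.39e-06). Of 11 forkhead relatives FOXJ2 (0.46) and FOXJ3 (0.29) rose, and FOXM1, a driver of the cell cycle, fell (−0.29).

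The cell cycle genes, which quiescence holds down, had the lowest list median in KO NK cells. Of 29 genes 24 had lower estimates, 13 fell and 2 rose by the looser rule, and the median log2 fold change was −0.36. Ccna2, the cyclin of S phase, was counted at 36.4 ± 3.01 CPM in WT and 20.9 ± 2.57 CPM in KO NK cells (SD, n = 3; −0.80, adjusted p = 0.0241). Ccnb2 (−0.78), the mitotic kinase gene Aurkb (−0.76) and the nucleotide reductase gene Rrm2 (−0.63) fell too, each with an adjusted p of 0.0279. The D-type cyclin genes Ccnd2 (0.55, adjusted p = 0.0279) and Ccnd3 (0.47, adjusted p = 0.0419) rose. Erythroid and B cell markers were lower in the same libraries, and their part in the cell cycle values was not tested. Under scaling to the NK cell markers the list median was −1.21, beside −0.81 for all genes. In NK92MI cells 6 of 29 rose and 11 fell, beside 18.4% of all genes in each direction, with a median of −0.08. RRM2 (0.69), CCND2 (0.58), CDK6 (0.30) and CDK1 (0.27) rose, and CCNA2 (−0.49), PLK1 (−0.47), MCM2 (−0.33) and BUB1B (−0.30) fell.

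Immediate early genes are switched on when cells leave rest or are stressed. Of 19 such genes Jund rose in KO NK cells (log2 fold change 0.46, adjusted p = 0.0461), and 0 fell by edgeR's quasi-likelihood test. By DESeq2, Ier3 (adjusted p = 0.00817), Atf3 (0.0247) and Dusp1 (0.0241) were lower, and Jund (0.00278) and Fosl2 (0.0366) were higher. In NK92MI cells 11 of 17 rose and 1 fell, with a list median of 0.62. JUN rose from 72.8 ± 4.74 to 246 ± 17.3 CPM (SD, n = 3; 1.76, adjusted p = 3.37e-09). IER5 (1.21), NFKBIA, which encodes the inhibitor of NF-kB (1.18), and FOSL2 (0.83) rose, and FOS fell from 5.15 ± 1.02 to 3.13 ± 0.74 CPM (−0.72, adjusted p = 0.0206). KLF6 thus rose in libraries in which most of the immediate early genes tested rose, while KLF2 fell in them. The relation between these changes was not tested.

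The genes most like each factor across the 6 libraries of a species were found by Pearson correlation of log2 CPM, among 9131 mouse and 8555 human genes (8556 for KLF2). With 6 libraries in 2 groups, these values are a description of shared library patterns. For Klf2 they were Tatdn2, Orai2 and Tonsl (r of 0.9992, 0.9977 and 0.9972), and 1071 genes exceeded an r of 0.9. For Foxo1 they were Peak1, Ptprc and Zzef1, with 1002 genes above 0.9, and for Foxo3 Rps6ka3, Nhsl2 and Dock9, with 339. Klf6 and Foxp1 had patterns of their own, with 23 and 19 genes above 0.9, led by Mpp5, Ankrd13c and Nhlrc3 and by Smap2 and Trove2. In NK92MI cells KLF6 was followed most closely by CPOX, ZFP36L1 and IRF2, with 1351 genes above 0.9. KLF2 was followed by THAP12, CDV3 and RBM5, with 748 such genes. FOXO3 was followed by ZBTB6, NUDT4 and CCDC174 (600 genes), FOXP1 by WDR47, RBMXL1 and TEFM (645 genes) and FOXO1 by CMPK1, LSM8 and ZNF678 (48 genes).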

How the data were processed

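RNA-seq libraries were made from poly(A) RNA with the NEB Next Ultra RNA kit. The authors trimmed reads with fastp 0.23.4, aligned them with STAR 2.7.11b to GRCm38 or GRCh38, allowing 2 mismatches, and counted them per gene with HTSeq 2.0.3 (versions from the submitters' processing notes). The deposited values are raw counts per gene symbol. The annotation release and the strand setting are not given in the sources used here. The control columns of the human table (CON) could not be tied to single DMSO samples and were used as a group.

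Each species was fitted separately in R 4.3.3 with edgeR 4.0.16 (TMM, filterByExpr, quasi-likelihood test, Benjamini-Hochberg adjustment over all genes tested). The calling rule of the study's methods was used (adjusted p below 0.01, log2 fold change beyond 0.5 either way), with an adjusted p below 0.05 as a looser rule. DESeq2 1.42.0, which the study used, was an alternative, as were other scalings, no filter, the replicate number as a block and each library left out in turn. The procedure was tested on simulated data in which 200 genes were changed by 1 on the log2 scale. In mouse the calling rule recovered 69.5% of them by edgeR with 3 false calls, and 91.5% by DESeq2 with 27 false calls. In human both tools recovered 99.5% with 0 false calls. In mouse, edgeR's test thus missed part of the changes of this size. The coefficient of variation between replicates was 18.2% in mouse and 7.55% in human. Log2 CPM used a prior count of 2. The members and lists were chosen with earlier results of these data known. Named were all members, Ehmt2 and Ezh2, the 3 genes most like each member (mean CPM of at least 10), and of each list up to 4 genes per direction with the smallest adjusted p below 0.05. Some genes that this rule names are not reported here. The H3K9me2 CUT&Tag data were not analysed here.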

Additional observations from a re-analysis of the deposited data

How the results depend on the processing

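KLF6 and FOXO1 kept their direction and their side of the thresholds under all 11 alternatives in NK92MI cells. KLF2 ranged from −1.27 to −1.04 on the log2 scale over the fits without 1 library, and was not called without CON-1, where 1 of the 5 factors was called (1 to 2 over all such fits). By the looser rule (adjusted p below 0.05), 4 factors and 83 of 140 list genes (59.3%) were called in place of 2 and 39 (27.9%). Over all genes tested, 36.9% passed in place of 11.7%. FOXO3 (0.26) and FOXP1 (0.36) were the factors added. In mouse, scaling to the NK cell markers gave 1 factor and 58 of 160 list genes (36.2%) called in place of 0 and 0, beside 3561 of all 13189 genes. Klf2 was then at −0.42, Klf6 at −0.75, Foxo1 at −0.59, Foxo3 at −0.72 and Foxp1 at −0.92, and all but Foxp1 reversed. The list genes called were 23 of 162 by DESeq2 (14.2%), 27 of 160 by the looser rule (16.9%) and 0 to 15 of 160 with a library left out. The 15 (9.38%) came without WT replicate 2, where 1163 of all 13411 genes were called. Klf6 ranged from −0.041 (without KO replicate 3) to 0.18 in those fits. Over all mouse genes 0 were called, beside 1499 by DESeq2, 34 with no filter, 1163 without WT replicate 2 and 3561 after scaling to the NK cell markers, of which 19 were higher. By the looser rule 1565 passed (585 higher), beside 0, 0, 99 and 14 without KO replicate 2, KO replicate 3, WT replicate 1 and WT replicate 3 and 3530 without WT replicate 2. The cause was not tested. Same-numbered WT and KO libraries correlated in their deviations at 0.28, 0.35 and −0.19, so the numbers were not taken as pairs. WT replicate 3 correlated best with KO replicate 1. With the replicate block, 819 of 13189 genes in place of 0, 11 of 160 list genes (6.88%) and 0 factors were called. Klf2 then passed the looser rule (0.38, adjusted p = 0.0457 in edgeR's test). No paired analysis was possible for the human table because its control columns carry no replicate link. Low counts limit the precision of KLF2 in NK92MI cells, with at most 79 counts per library.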
